A study of Melitaea cinxia with 174 samples.

Results

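The 150 genes described here had a low mean expression level in Glanville fritillary butterflies (Melitaea cinxia) from the Åland Islands (ÅL) and similar, higher means in the other 3 study populations, Uppland (UP), Saaremaa (SA) and Öland (ÖL). They were chosen among 16667 gene models from the population means of log2(normalized count + 1). The means of UP, SA and ÖL all had to be 2 or more, and the gap, which is the lowest of these 3 means minus the ÅL mean, had to exceed the range of the 3 means. Of the gene models, 776 met both conditions, and the 150 with the largest gap were taken. The level in ÅL relative to the other populations thus chose the members, and their ÅL differences are given as a description without a test.

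RNA was measured in the thorax of 174 adults, 1 library per butterfly, with 49 from ÅL (26 males, 23 females), 20 from UP (9 males, 11 females), 63 from SA (35 males, 28 females) and 42 from ÖL (27 males, 15 females). ÅL and UP are landscapes with small, scattered meadows, and SA and ÖL have large continuous grasslands. All butterflies were collected as wild larvae during diapause, reared singly on Plantago lanceolata in common garden conditions, and held for 3 days after eclosion without any other treatment. Each population was 1 region, and ÅL held butterflies from newly founded and old local populations, which the labels do not tell apart. The total counts ranged from 442717 to 7742394 per library, with medians of 2550153 in ÅL, 3584944 in UP, 3008807 in ÖL and 1895936 in SA.

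The thorax of a butterfly is filled mainly with flight muscle, and also holds cuticle, fat body, nerve and tracheae, so a level is an average over these tissues. Lower levels can come from fewer cells of a type or from less RNA per cell, and bulk libraries cannot tell these apart. Genes for the handling of RNA, for protein turnover and for membranes and the cytoskeleton are used in most cell types. Cuticle proteins form the outer skeleton, and troponin, tropomyosin and myosin form the contractile fibres of muscle. A normalized count is a read count scaled by library size and by a trimmed mean of M values (TMM) factor. A member that is low on this scale is low relative to the other genes of the same library, and the values are not scaled by gene length, so a high count of one gene against another is a count and not a level per length.

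Some libraries of ÅL stood apart in measures taken over all genes. In 10 of the 49 ÅL libraries (7 males, 3 females) the sum of the normalized counts was between 1503300 and 2495520, above that of every library of UP, SA and ÖL, where the highest was 1483000. Their total counts, from 2111854 to 7059826, were not low, but the 10 most abundant genes took 25.4% to 48.9% of the reads, compared with 19.8% to 30.8% in the other 39 ÅL libraries and 16.02% to 32.4% in the other populations. Values without the 10 libraries are therefore also given, and are for the remaining 39 ÅL butterflies. In 3 individuals (1 ÅL male, 1 SA female and 1 ÖL male) the genes that differ most between the sexes lay on the side of the other sex, and they were also left out as an alternative.

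The marker lists differed in the same libraries. The summed normalized count of 21 genes described as cuticle proteins had a median of 41186 (range 17846 to 65235) in the 10 ÅL libraries, 13090 (2579 to 42774) in the other 39, 8651 in UP, 9543 in ÖL and 4297 in SA. The sum of the 3 flight muscle genes had a median of 3032 in the 10 libraries, 1590 in the other 39, 1339 in UP, 1438 in ÖL and 1252 in SA. None of the 150 members is in these lists, and 4 cuticle genes and no muscle gene had a mean log2 level under 1 in every population. The 4 fat body genes had median sums of 4.71 in the 10 libraries and 9.64 in the other 39, compared with 1.62 in UP, 1.34 in ÖL and 1.35 in SA. These medians are a few counts, and the lowest sum was 0 in each set. The highest sums were 248, 1170, 1468, 23.2 and 14.4 in the same order. Of these genes, 1 had a mean log2 level under 1 in every population. Marker genes were picked by descriptions in the study's supplementary tables, which include its list of genes that differ between landscapes. The fat body genes are hexamerins (larval serum proteins) that the study reports as higher in fragmented landscapes, here ÅL and UP. It reports the same for nearly all cuticle genes that differed and for some troponin genes. Troponin was among the words used to pick the flight muscle genes. High ÅL sums relative to SA and ÖL can therefore follow partly from how the lists were made. The 10 libraries were picked for a high sum of normalized counts over all genes, with a median of 1798445 against 1014950 in the other 39. High cuticle and muscle sums in the 10 can therefore follow partly from how these libraries were picked. The part of these tissues in the low levels of the members was not tested.

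The mean over the 150 members of log2(normalized count + 1) had a lowest, median and highest value of 2.56, 4.10 and 4.53 in ÅL butterflies, 4.34, 4.55 and 4.82 in UP, 4.02, 4.68 and 4.96 in SA, and 4.26, 4.59 and 4.91 in ÖL. Thus, the ÅL butterflies ranged from far below to within the range of the others, and 19 of the 49 were below the lowest of the other 125. All 10 libraries with a high normalized sum were among these 19, with a lowest, median and highest value of 2.56, 2.93 and 3.38. The other 39 ÅL libraries had 2.80, 4.17 and 4.53, with 9 below all other populations. Some of the 39 had normalized sums a little below those of the 10 and member means within their range. These had sums of 1412730, 1427090, 1390200 and 1371990, and member means of 2.80, 2.96, 3.28 and 3.35. Another of the 39, with a sum of 1480920, had 4.22. Values without the 10 libraries thus still include low ÅL libraries. The normalized sum and the member levels share the TMM factor. For counts scaled by the total count alone, the median of the member mean was 2.22 in the 10 libraries. It was 4.20 in the other 39 and 4.67 in UP, SA and ÖL together. This scaling divides out the high normalized sums by which the 10 libraries were picked. It could only place them lower, so it is not a separate check.

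**Figure D1:**
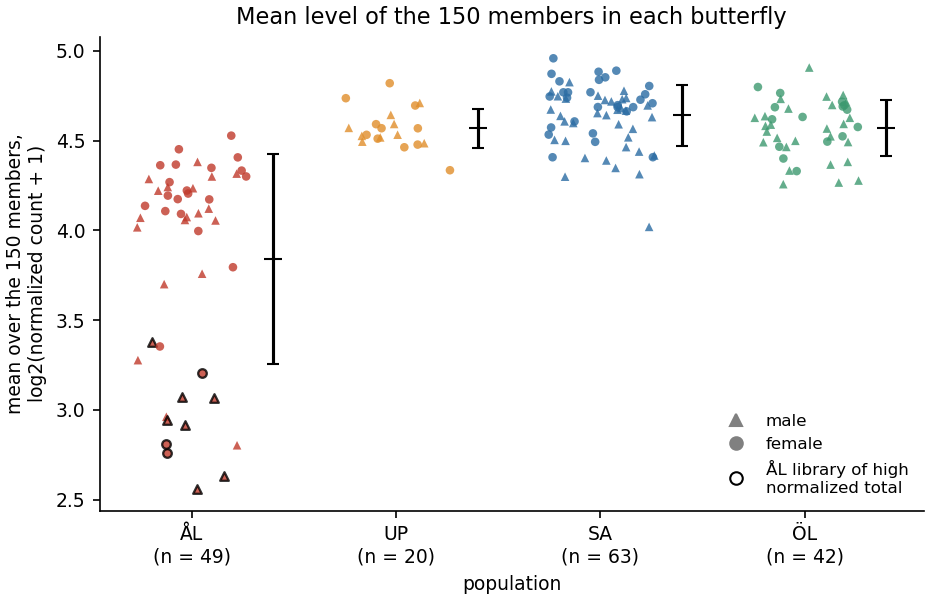
Mean over the 150 members of log2(normalized count + 1) in each butterfly, by population, with males as triangles and females as circles. The bar beside each group gives the mean and SD. ÅL butterflies spread from 2.56 to 4.53, with the 10 libraries of high normalized sum (black outline) between 2.56 and 3.38, while the other populations stay between 4.02 and 4.96.

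The gaps of the 150 members ranged from 0.50 to 1.15 on the log2 scale with a median of 0.60, so that the ÅL mean was 1.42 to 2.22 times lower than the lowest of the other means. Only 2 gaps were 1 or more and 23 were 0.75 or more. The last members inside the limit were MCINX002537 (gap 0.51), MCINX015335 (0.51) and MCINX005841 (0.50), which had gaps of 0.22, 0.25 and 0.44 without the 10 libraries, and the first genes outside were MCINX005351, MCINX012467 and MCINX008175 with a gap of 0.50 each. The limit therefore cuts a continuous series of values. Applied in mirror image, the 2 conditions kept 324 genes that were high in ÅL, 839 low in SA, 135 low in UP and 253 low in ÖL.

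No member separated the populations by individual. In 0 of the 150 members was every ÅL butterfly below every other butterfly, as in 0 of the 5689 genes with the other 3 means at 2 or more (0%). By edgeR, 148 of the 150 members were lower in ÅL than in the mean of the other populations at a false discovery rate (FDR) under 0.05, where 18% of the 8976 tested genes were lower. This contrast chose the members, and nothing is read from the count. UP was called different from the mean of SA and ÖL in 4 members, 3 lower and 1 higher, with 19% of all genes called, 7.33% lower and 11.6% higher, and here too the rule had limited the range.

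Without the 10 libraries the ÅL mean was still the lowest in all 150 members, for whose choice the other 39 had also been used. The median gap was then 0.38 (range 0.09 to 0.93), the gap exceeded the range of the other means in 115 members, and 41 members kept a gap of 0.5 or more. The members differed widely in how much of the gap was kept, from 17% to 123% with a median of 60.02%. In 21 members at least 90% of the gap was kept, and in 41 members less than 50%. The median of the 39 remaining ÅL libraries was below the medians of UP, SA and ÖL in 140 members.

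**Figure D2:**
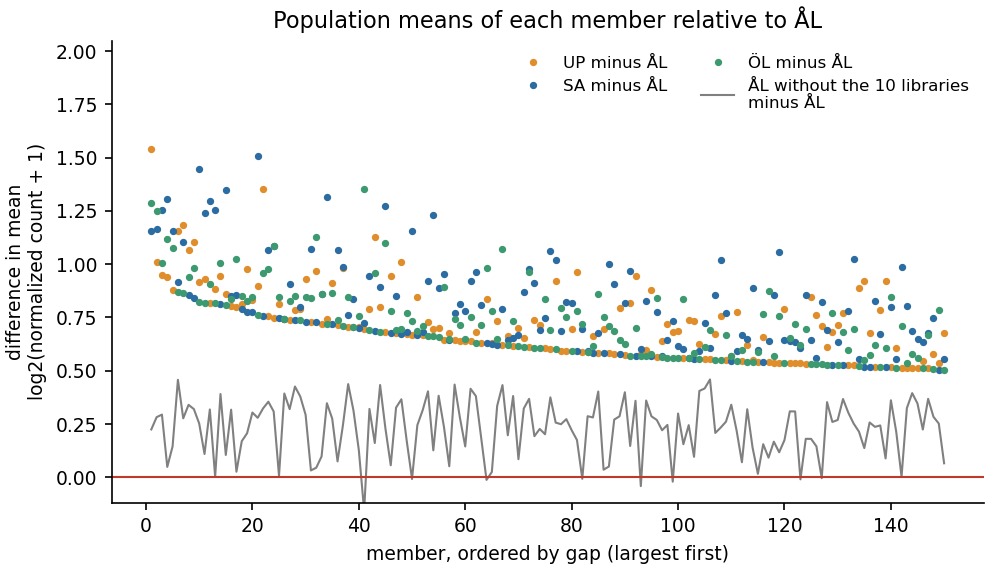
Mean log2(normalized count + 1) of UP, SA and ÖL minus that of ÅL for each of the 150 members, ordered by gap. The lowest point of each member is its gap, from 1.15 to 0.50, and the grey line gives the ÅL mean without the 10 libraries on the same scale, which shows how much of each gap those libraries carry.

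The gene with the largest gap was MCINX016028, which has no description. Its lowest, median and highest normalized counts were 2.03, 22.7 and 75.0 in ÅL, 28.9, 54.1 and 113 in UP, 7.48, 43.5 and 111 in SA, and 11.5, 48.5 and 127 in ÖL. The ÅL butterflies overlapped with the others, but 8 of the 49 were below all of them. The mean log2 levels were 4.32 in ÅL and 5.86, 5.47 and 5.60 in UP, SA and ÖL, and the gap was 1.15, or 0.93 without the 10 libraries.

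MCINX010929, described as a ubiquitin-like protein, came next. Ubiquitin-like domains resemble ubiquitin, the tag that marks proteins for degradation and other fates. Its lowest, median and highest normalized counts were 0, 4.55 and 15.9 in ÅL, 2.44, 10.1 and 15.2 in UP, 0.979, 11 and 34.3 in SA, and 3.18, 11.8 and 21.4 in ÖL. The gap was 1.01, or 0.73 without the 10 libraries. MCINX010928, with the preceding identifier, is also a member, and their residual levels had a correlation of r = 0.65 over the 39 ÅL libraries and of r = 0.47 over the 125 other butterflies. The libraries were anchored at poly-A, the counting of overlapping gene models is not known, and shared reads between neighbouring models were not tested.

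MCINX012915 is described as a small or intermediate conductance potassium channel, which calcium inside the cell opens and which dampens the firing of nerve and muscle. The lowest, median and highest normalized counts of ÅL butterflies were 1.001, 20.6 and 54.5, and those of the others were 17.3, 36.9 and 67.4 in UP, 18.2, 43.4 and 72.9 in SA, and 16.8, 37 and 81.8 in ÖL. In 18 of the 49 ÅL butterflies the channel was below every other butterfly. Its gap was 0.95, or 0.65 without the 10 libraries.

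Of the other genes among the 12 with the largest gaps, 6 are not described: MCINX015708 (gap 0.94), MCINX001152 (0.87), MCINX012214 (0.85), MCINX014193 (0.84), MCINX016262 (0.82) and MCINX010479 (0.82). Without the 10 libraries these gaps were 0.89, 0.41, 0.51, 0.52, 0.57 and 0.71 in the same order. MCINX015708 and MCINX001152 show the extremes of how the ÅL butterflies differed. MCINX015708 had medians of 21.3 in the 10 libraries and 25.1 in the other 39, both below 40.8 in UP, 51.1 in ÖL and 53.1 in SA. MCINX001152 had medians of 8.80 in the 10 libraries and 50.7 in the other 39, compared with 71.3 in UP, 59.4 in ÖL and 56.8 in SA. MCINX007456, described as CG31301 of Drosophila, had a gap of 0.88 (0.73 without the 10 libraries) with medians of 2.94 in ÅL, 5.58 in UP, 7.49 in ÖL and 7.71 in SA.

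The study's supplementary tables list 62 of the 150 members, 59 of them in its list of genes that differ between fragmented and continuous landscapes, and 43 have a description other than hypothetical or uncharacterized. That list was chosen on these same butterflies, and a low ÅL mean itself favours entry to it. The share of all genes in that list was not counted here, so nothing is read from the 59. The described members are thus not a random share of the 150, and of the 107 others only Cask, named below, was assigned a role. UP was the lowest of the other 3 means in 42 of the 59 landscape genes. The study required the means of both fragmented populations to lie on the same side of both continuous ones. For genes low in ÅL this count therefore largely follows from the list itself. Of the 150 members, UP was the lowest of the other populations in 63 (42%), SA in 37 (24.7%) and ÖL in 50 (33.3%). Over the 5689 genes the shares were 24.8% for UP, 43.5% for SA and 31.7% for ÖL. The roles used below were assigned to 28 members after their values were seen.

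Among the described members, 15 take part in transcription, RNA processing or translation, and their gaps ranged from 0.51 to 0.86 with a median of 0.61. MCINX003457 is described as Mediator complex subunit 12, part of the kinase module of the complex that links transcription factors to RNA polymerase. Its lowest, median and highest normalized counts were 0, 6.75 and 39.5 in ÅL, 6.50, 16.3 and 39.2 in UP, 1.98, 18.9 and 49 in SA, and 1.64, 16.1 and 41.2 in ÖL. Its gap of 0.86 was the largest of the 15, and 0.59 remained without the 10 libraries. MCINX014424 carries the RPA43_N name of an RNA polymerase subunit domain and had medians of 3.20 in ÅL, 6.92 in UP, 7.94 in ÖL and 11.1 in SA, with a gap of 0.82, or 0.50 without the 10 libraries.

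Several of the 15 act on messenger RNA itself. MCINX010509, a zinc finger CCCH protein of the type that binds poly-A tails, had medians of 18.2 in ÅL, 36 in UP, 33.7 in ÖL and 29.9 in SA (gap 0.81). MCINX007730, a protein associated with the U4/U6.U5 tri-snRNP of the spliceosome, had 5.74 in ÅL, 10.4 in UP, 8.95 in ÖL and 15.8 in SA (gap 0.76). MCINX002700, the poly-A ribonuclease PARN that shortens poly-A tails, had 11.3 in ÅL, 15.4 in UP, 14.9 in ÖL and 18 in SA (gap 0.61). The gaps of these genes were 0.42, 0.48 and 0.29 without the 10 libraries.

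MCINX007952, described as Msx2-interacting protein, a large nuclear RNA-binding repressor, was among the members with higher counts. Its lowest, median and highest normalized counts were 59.5, 361 and 760 in ÅL, 292, 461 and 708 in UP, 249, 452 and 1116 in SA, and 276, 485 and 1023 in ÖL. The 10 libraries had a median of 112 and the other 39 ÅL libraries one of 456, and the gap was 0.62 with and 0.24 without the 10. MCINX011988, described as an RNA helicase, followed the same course with a gap of 0.62, or 0.19 without them. Over the 15 genes of this group, the median gap without the 10 libraries was 0.29, with a lowest of 0.09, beside 0.38 over all 150 members.

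The lowest of these was MCINX008056, described as the translation initiation factor aIF-2, which acts at the start of translation. Its median normalized count was 36.7 in the 10 ÅL libraries and 158 in the other 39, compared with 146 in UP, 154 in ÖL and 144 in SA. Here the median of the 39 libraries was above those of the other populations, and the gap of 0.55 over all 49 became 0.09 without the 10. The next genes in this order were MCINX013276, described as suppressor of sable, an RNA-binding nuclear protein of Drosophila, whose gap of 0.51 became 0.12, and MCINX005263, an elongin subunit that speeds RNA polymerase II, whose gap of 0.51 became 0.14. These genes, and those with the most stable gaps named next, were chosen after their values were seen.

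Members at the other end kept their gap. MCINX004005, described as a forkhead protein, a family of DNA-binding transcription factors, had lowest, median and highest normalized counts of 33.6, 93.0 and 154 in ÅL, 88.6, 122 and 167 in UP, 47.5, 130 and 286 in SA, and 70.9, 132 and 260 in ÖL. Its medians in the 10 ÅL libraries and in the other 39 were 84.3 and 94.9, both below the other populations, and its gap was 0.53 with and 0.54 without the 10. MCINX013879, described as the NADH dehydrogenase 1 beta subcomplex 7, a subunit of complex I of the respiratory chain, had medians of 5.24 in the 10 libraries, 5.96 in the other 39, 11.7 in UP, 13.1 in ÖL and 11.9 in SA. Its gap of 0.80 became 0.77.

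The same held for MCINX015672, described as a Zic-binding protein, with medians of 21.3 in the 10 libraries and 19.8 in the other 39, against 29.3 in UP, 32.2 in ÖL and 41.1 in SA, and a gap of 0.67 with and 0.68 without the 10. MCINX000361, a LanC-like protein, had medians of 4.88 and 7.02 in the 10 and the 39 libraries, against 8.89 in UP, 11.3 in ÖL and 14 in SA. The other described members that kept at least 90% of the gap were MCINX002198 and MCINX003317. MCINX002198, a mitochondrial sodium/hydrogen exchanger of the NHA2 type, had medians of 6.97 in the 10 libraries, 8.47 in the other 39, 14 in UP, 16 in ÖL and 12.1 in SA. In these members, then, the low ÅL level was shared by libraries with and without a high normalized sum.

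**Figure D3:**
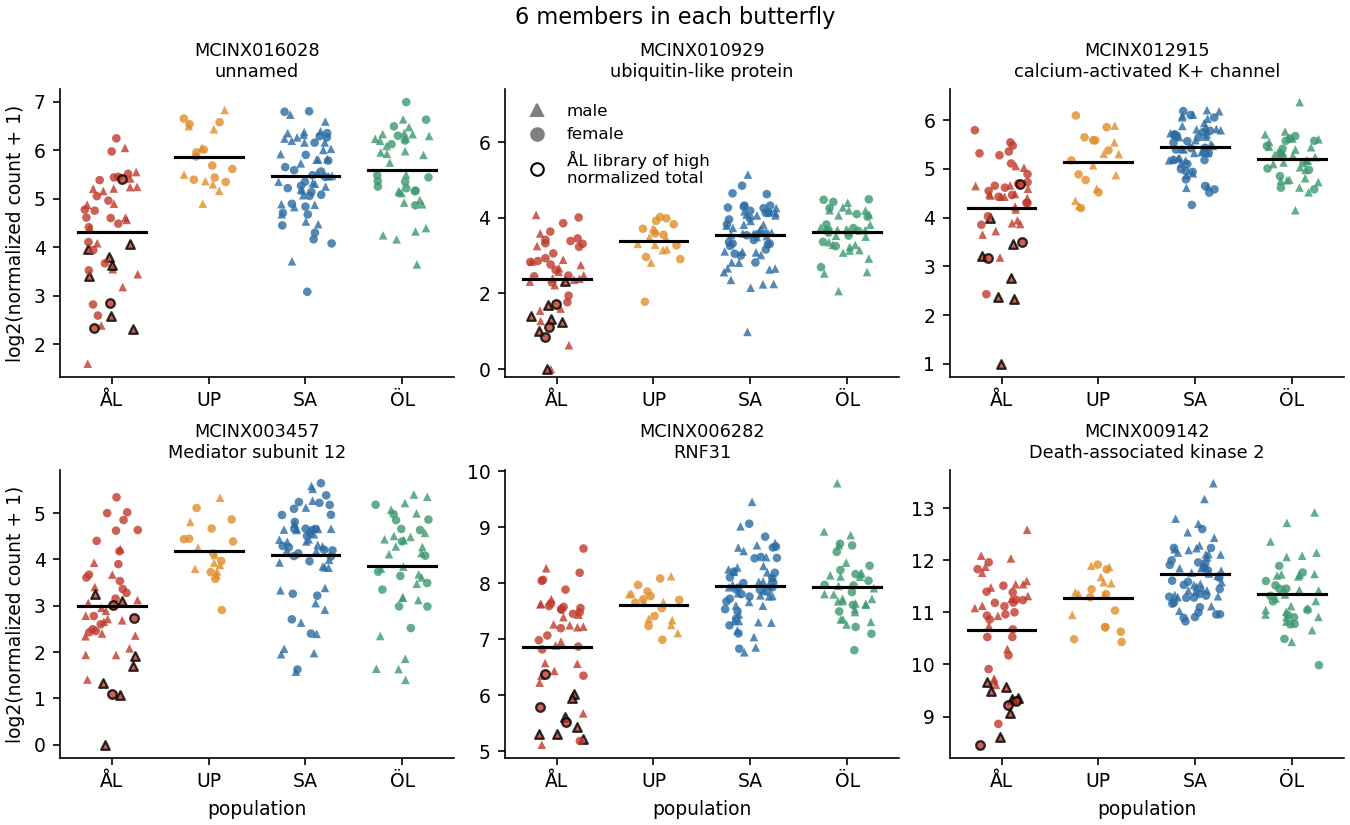
log2(normalized count + 1) of 6 members in each butterfly, by population, with the population mean as a line, males as triangles, females as circles and the 10 ÅL libraries of high normalized sum outlined in black. Most outlined libraries lie in the lower part of the ÅL values, and in MCINX012915, MCINX006282 and MCINX009142 a total of 18, 19 and 15 ÅL butterflies lie below all others.

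Genes of ubiquitin conjugation and protein turnover made up 6 of the described members, with gaps from 0.52 to 1.01 and, without the 10 libraries, a median of 0.38. MCINX006282 is described as RNF31, the catalytic part of a ligase that builds linear ubiquitin chains in mammals. Its lowest, median and highest normalized counts were 33.6, 133 and 391.8 in ÅL, 126, 202 and 278 in UP, 108, 242 and 699 in SA, and 111, 234 and 881 in ÖL. In 19 of the 49 ÅL butterflies it was below every other butterfly, the largest number for any member. Its gap was 0.75, or 0.44 without the 10 libraries.

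The other genes of this group had smaller gaps. MCINX005340, described as the E3 ubiquitin ligase highwire, which restrains synapse growth in Drosophila, had medians of 11.1 in ÅL, 15.3 in UP, 15.9 in ÖL and 20.2 in SA (gap 0.65). MCINX002152, described as cullin-5, a ligase scaffold, had 23.3 in ÅL, 35.8 in UP, 30.8 in ÖL and 35.1 in SA (gap 0.56). MCINX000063, an arginyl-tRNA protein transferase that adds arginine to protein ends and so prepares them for degradation, had 28.3 in ÅL, 38.4 in UP, 43.6 in ÖL and 47 in SA (gap 0.53). MCINX003036, described as the proteasome activator Psme4, had 63.6 in ÅL, 76.1 in UP, 90.2 in ÖL and 107 in SA (gap 0.52). Without the 10 libraries these 4 gaps were 0.41, 0.26, 0.35 and 0.28.

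The 7 members of membranes, transport and the cytoskeleton had gaps from 0.55 to 0.95 with a median of 0.72, or 0.37 without the 10 libraries. MCINX000334, described as ankyrin-G, anchors ion channels to the cytoskeleton below the cell membrane. Its lowest, median and highest normalized counts were 54, 472 and 1272 in ÅL, 401, 681 and 1090 in UP, 207, 693 and 1877 in SA, and 293, 645 and 2319 in ÖL. The 3 other populations had the same mean log2 level of 9.37, and the ÅL mean was 8.63. The 10 libraries had a median of 154 and the other 39 one of 627, and the gap was 0.74 with and 0.35 without the 10.

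MCINX015680, described as the vesicle tethering protein USO1, had medians of 18.7 in ÅL, 25 in UP, 27.5 in ÖL and 28.5 in SA, and was below all other butterflies in 17 of the 49 ÅL individuals (gap 0.74). MCINX008716, described as Cask, a scaffold at cell junctions and synapses that the naming rule had left out as uncharacterized, had 73.6 in ÅL, 111 in UP, 108 in ÖL and 160 in SA (gap 0.72). MCINX012641, described as the microtubule protein MAP1B, had 33 in ÅL, 49.1 in UP, 68.1 in ÖL and 55.9 in SA (gap 0.57). The remaining gap was 0.42, 0.37 and 0.30 in the 39 libraries.

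The 4 members with the highest mean counts, of which ankyrin-G was described above (gap 0.74), had gaps from 0.58 to 0.74. MCINX009142, described as death-associated kinase 2, a calcium/calmodulin-dependent kinase, had the highest mean count, with lowest, median and highest normalized counts of 351, 1992 and 6135 in ÅL, 1378, 2614 and 3860 in UP, 1814, 3244 and 11392 in SA, and 1013, 2571 and 7725 in ÖL. In 15 ÅL butterflies it was below every other butterfly, and its gap was 0.60 with and 0.23 without the 10 libraries. MCINX015835, which has no description, had medians of 850 in ÅL, 1099 in UP, 1024 in ÖL and 1174 in SA. Its gap of 0.58 became 0.18. MCINX013551, described as CG32352, had medians of 521 in ÅL, 640 in UP, 709 in ÖL and 764 in SA, and a gap of 0.64 that became 0.36.

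At the low end, depth limits what can be said. MCINX012404, described as enkurin, a calmodulin-binding protein of cilia and sperm, had a median of 1.52 in ÅL, 3.68 in UP, 3.65 in ÖL and 5.23 in SA, and no read in 9 of the 49 ÅL libraries. For such genes a single read is worth a large share of the level. No 0 count occurred in ÅL for 83 of the 150 members (55.3%, against 80.6% of the 5689 genes), in UP for 145 (96.7%, against 97.8%), in SA for 122 (81.3%, against 79.7%) and in ÖL for 133 (88.7%, against 90.2%), where the populations also differ in the number of libraries. Described members outside these groups were MCINX007478, the DNA repair helicase Rad54l, with medians of 23.5 in ÅL, 33.9 in UP, 37.4 in ÖL and 38.9 in SA (gap 0.68), and MCINX009979, a protein like CG31712, with 57.8 in ÅL, 78.0 in UP, 70.3 in ÖL and 83.4 in SA (gap 0.66). Without the 10 libraries the gap was 0.54 for MCINX012404, 0.35 for MCINX007478 and 0.26 for MCINX009979.

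The signalling lists of the study gave few members. Of the 93 Wnt genes, 50 had the other 3 means at 2 or more, ÅL was the lowest in 18 of these, and 2 were members. Of the 95 hedgehog genes the numbers were 37, 20 and 1, and of the 35 Notch genes 14, 4 and 0. The members were MCINX002152 (cullin-5, above) in the Wnt list and MCINX006192, a prp4-type kinase that acts in splicing, in both the Wnt and the hedgehog list. MCINX006192 had medians of 8.83 in ÅL, 12.6 in UP, 11.7 in ÖL and 11.9 in SA, and a gap of 0.53, or 0.26 without the 10 libraries. Over all 5689 genes, ÅL was the lowest in 2123.

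Gene ontology terms were available for 29 members and for 671 of the 5689 genes. RNA processing held 5 of the 29 (17.2%) and 4.77% of the 671, kinase activity 4 (13.8%) and 4.77%, and proteolysis 3 (10.3%) and 5.81%. The nucleus held 8 (27.6%) and 22.95%, and the membrane 6 (20.7%) and 21.5%. The endoplasmic reticulum and oxidation-reduction held 0 of the 29, and 5.96% and 3.28% of the 671. These shares are descriptions of small numbers, and the terms come mostly from the landscape list.

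The members varied more among ÅL butterflies than elsewhere. The median SD of log2(normalized count + 1) was 0.97 in ÅL, 0.54 in UP, 0.61 in ÖL and 0.67 in SA. In all 5689 genes the corresponding medians were 0.76 for ÅL, 0.53 for UP, 0.61 for ÖL and 0.65 for SA. The SD in ÅL exceeded that of every other population in 127 of the 150 members (84.7%) and in 61.4% of the 5689 genes. Without the 10 libraries the median SD of the members in ÅL was 0.80, and the counts were 108 members (72%) and 43.8% of the 5689 genes. The larger spread in ÅL was thus also present without the 10 libraries, but the remaining ÅL libraries still include some with low member levels. A few very low ÅL libraries lower the ÅL mean, by which the members were chosen, and raise the SD at the same time. The excess of the members over the 5689 genes can therefore follow partly from the rule, with or without the 10 libraries. The members also had lower counts in ÅL, and the part of this in the SD was not tested.

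**Figure D4:**
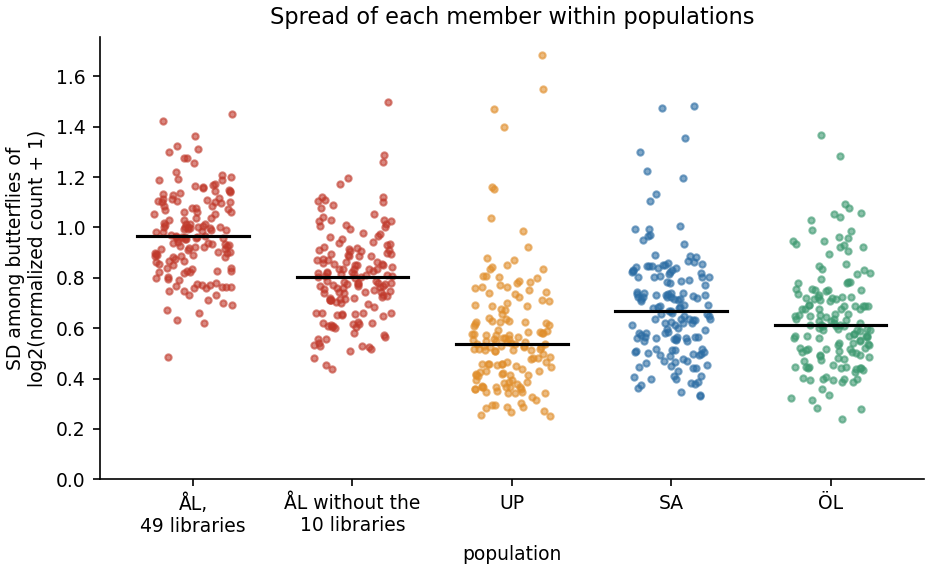
SD among butterflies of log2(normalized count + 1) for each of the 150 members (points), with the median as a line, in ÅL with all 49 libraries, in ÅL without the 10 libraries, and in UP, SA and ÖL. The medians are 0.97, 0.80, 0.54, 0.67 and 0.61.

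The members also varied together within ÅL. Over the 11175 pairs of members the median correlation between butterflies, after the mean of each sex was removed, was r = 0.34 in ÅL (n = 49), 0.04 in UP (n = 20), 0.04 in SA (n = 63) and 0.05 in ÖL (n = 42). Between the 5539 other genes with the same minimum mean the medians were 0.01 to 0.02 in all 4 populations. In ÅL, 55.5% of the member pairs had r above 0.3, compared with 17.4% in UP, 13.2% in ÖL and 12.2% in SA. Of the pairs of other genes 11.99% in ÅL, 14.8% in UP, 7.57% in ÖL and 6.55% in SA had r above 0.3. For members in ÅL the median was 0.22 and the share 38.2%, against 9.56% of the pairs of other genes, without the 10 libraries. The rule used the mean of each population and not the order of butterflies within it, but a few low ÅL libraries lower the mean and raise these correlations at once, and all values of a library share its scaling factor.

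Sex was not used by the rule, but the ÅL means were, and 7 of the 10 libraries with a high normalized sum were males. A low level in these libraries favoured the choice of a gene. The sex estimates in ÅL, and their difference from the other populations, are therefore not independent of the rule. Males of ÅL had a mean member level of 3.67 ± 0.61 (SD, n = 26) and females of ÅL one of 4.03 ± 0.50 (n = 23). In the other populations males and females had 4.56 ± 0.07 (n = 9) and 4.57 ± 0.14 (n = 11) in UP, 4.58 ± 0.17 (n = 35) and 4.71 ± 0.14 (n = 28) in SA, and 4.55 ± 0.16 (n = 27) and 4.61 ± 0.14 (n = 15) in ÖL. The ÅL mean was the lowest of the 4 in all 150 members among females and in all but 1 among males, with median gaps of 0.75 in males and 0.42 in females. Since 7 of the 10 libraries with a high normalized sum were males, the sexes of ÅL are also given without them: 3.95 ± 0.46 in 19 males and 4.19 ± 0.26 in 20 females.

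Over the 4 populations together, edgeR's quasi-likelihood test called 27 members lower and 14 higher in males at FDR under 0.05, when 10.9% of all tested genes were lower and 11.8% were higher. The members lower in males made up 18% of the 150 and those higher 9.33%. The mean over the 4 populations includes the ÅL difference, so these counts are not independent of the rule either. In ÅL alone 34 members (22.7%) were lower and 5 (3.33%) higher in males, against a background of 6.03% lower and 7.2% higher. Without the 10 libraries 20 members were lower and 3 higher in ÅL males, with 4.93% of all genes lower and 5.1% higher. Without the 3 individuals whose sex genes went against the label, 26 were lower and 5 higher, with 5.94% of all genes lower and 7.2% higher. In the other populations the numbers lower and higher were 0 and 2 in UP (backgrounds 0.279% and 0.535%), 6 and 7 in SA (4.98% and 6.04%), and 5 and 4 in ÖL (4.43% and 4.77%). In either direction 9.2% of all genes were called in ÖL, and 6% of the members.

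The difference between ÅL and the others in the effect of sex was tested itself. No member passed FDR under 0.05 for the sex difference of ÅL minus the mean sex difference of UP, SA and ÖL, when 0.479% of all genes did (0.312% lower), and DESeq2 also called 0 members. At an unadjusted p under 0.05 there were 29 members in edgeR (19.3%, against 11.5% of all genes), but without the 10 libraries there were 13 (8.67%, against 9.22%). The estimate was below 0, that is, the male minus female difference was lower in ÅL, in 123 of the 150 members and in 53.9% of all genes, or in 111 members and 53.7% of all genes without the 10 libraries. The lowest estimate was that of MCINX003457 (Mediator subunit 12), -1.11 ± 0.34 on the log2 scale (SE, edgeR FDR 0.12), with medians of 5.36 in ÅL males and 10.6 in ÅL females. The highest was that of MCINX002882, 1.04 ± 0.61 (edgeR FDR 0.50).

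**Figure D5:**
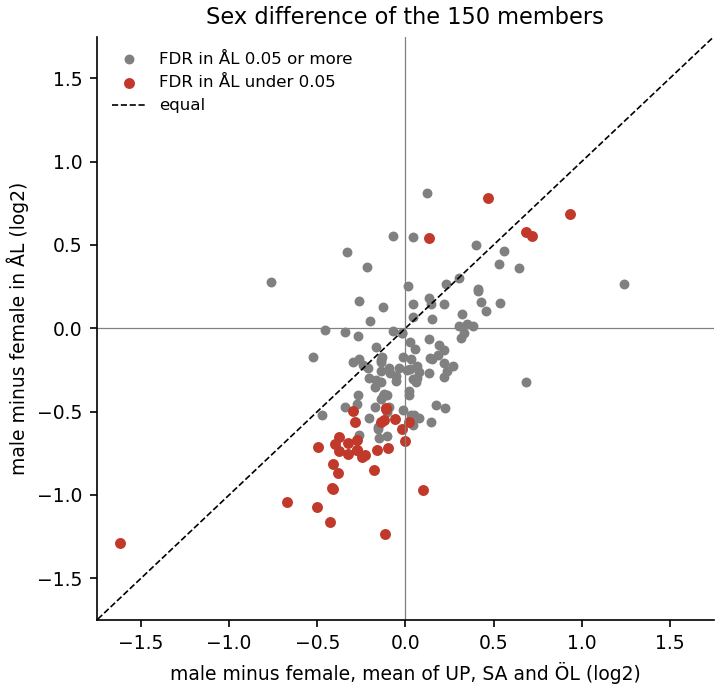
Male minus female log2 fold change of each member in ÅL (vertical axis) against its mean in UP, SA and ÖL (horizontal axis), with members past FDR 0.05 in ÅL in red and the line of equality dashed. Most points lie below the line, and 34 of the 39 red points are below 0, but no member passed the test of the difference between ÅL and the others.

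The member with the clearest sex difference was MCINX014912, which has no description. Its median normalized counts in males and females were 49.8 and 104 in ÅL, 90.6 and 142 in UP, 71.1 and 274 in SA, and 60.4 and 192 in ÖL. It was lower in males in all 4 populations, by 1.54 ± 0.14 on the log2 scale over the populations (SE, edgeR FDR 3.63e-19). MCINX015424 fell by 0.77 ± 0.10 in males (edgeR FDR 5.99e-11), MCINX013236 by 0.64 ± 0.13 (2.67e-05) and MCINX011169, whose Drosophila counterpart is given only by number, by 0.61 ± 0.13 (7.35e-05). In ÅL alone the estimates of MCINX015424, MCINX013236 and MCINX011169 fell by 1.04, 1.07 and 1.16, and the test of the difference gave an edgeR FDR of 0.48, 0.40 and 0.23.

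Among the members higher in males, MCINX002198 (NHA2) had medians in males and females of 9.96 and 7.005 in ÅL, 16.8 and 12.3 in UP, 18.02 and 9.62 in SA, and 20.2 and 7.15 in ÖL, with a log2 fold change of 0.87 ± 0.12 (SE, edgeR FDR 1.16e-09). MCINX016130 rose by 0.68 ± 0.11 (2.62e-07) and MCINX005737 by 0.66 ± 0.12 (5.61e-06). MCINX002198 and MCINX016130 were also among the genes that kept their gap without the 10 libraries. MCINX000061 had the largest estimate, 0.99 ± 0.19 (1.69e-05), but this came from 1 library. Its highest value was 270 in a UP male and no more than 34.98 elsewhere, and without that male the estimate was 0.20 ± 0.16 (edgeR FDR 0.44). It is also 1 of the 2 members called in UP, where its estimate of 3.37 became 0.19 (edgeR FDR 0.98).

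Depth was not used by the rule either. With log2 total count as a covariate, 48 of the 150 members (32%) depended on depth at edgeR FDR under 0.05, against 26.4% of all genes, with 21 higher (18% of all genes) and 27 lower (8.42%) in deeper libraries. The steepest slopes per doubling of the total count were -0.31 ± 0.08 for MCINX015816 and -0.30 ± 0.05 for MCINX001693 at the low end, and 0.48 ± 0.16 for MCINX002882 and 0.34 ± 0.07 for MCINX008614 at the high end (SE, edgeR FDR 0.0026, 4.54e-06, 0.014 and 1.77e-05). Total counts ranged from 442717 to 7742394, which is several doublings. In libraries with a total of at least 2000000 counts, 9 members (6%) and 7.19% of all genes were called for depth. In the 15 deepest libraries of each population edgeR called 0 members and 0% of all genes, with 17 members (11.3%) and 12.3% of all genes at an unadjusted p under 0.05. The ÅL mean stayed the lowest in all 150 members in both sets, with a median gap of 0.72 with at least 2000000 counts and of 0.74 in the deepest libraries. All 10 ÅL libraries of high normalized sum are in the first set, and 6 of them are among the 15 deepest of ÅL. Both sets thus hold a larger share of these libraries than the 49. The part of depth in these gaps cannot be told apart from theirs.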

How the data were processed

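The authors sequenced thorax RNA of 174 butterflies from strand-specific libraries anchored at poly-A, with CASAVA 1.7, TopHat2 2.0.5 and edgeR named in the submitters' processing notes. The deposited counts per gene model are whole numbers without normalization, with total counts from 442717 to 7742394 per library. The deposited normalized counts are a signal that the authors obtained by scaling each library with its size and TMM factor. They were a constant multiple of the raw counts within 0.0367% (counts of at least 10). The counter and the treatment of overlapping gene models are not given in the sources used here, so members with neighbouring identifiers are uncertain. Comparisons across populations depend on the scaling, and low genes on depth. Columns of the authors' own comparisons in the supplementary tables were not used. Gene descriptions, pathway lists and gene ontology terms were copied from these tables. Identifiers are those of the study, and sequences were not analysed here.

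The labels gave population and sex. Members were chosen on log2(normalized count + 1). The tests were edgeR 4.0.16 quasi-likelihood tests in R 4.3.3 on the raw counts, with TMM, filterByExpr (minimum count 10), 8 population-by-sex means over all 174 butterflies, and Benjamini-Hochberg FDR over 8976 genes. All 150 members passed the filter. The SE is the log2 fold change divided by the square root of F. Residual levels are deviations from the mean of each sex in each population. Alternatives were DESeq2 1.42.0, RLE size factors, no filter, log2 total count as a covariate, a balanced set of the 15 deepest libraries per population, libraries of at least 2000000 counts, each sex, scaling by total count, a pseudocount of 4, medians and the log2 of mean counts. The omission of the 10 ÅL libraries, of 3 individuals whose 50 most sex-different genes lay at 35 or more on the side of the other sex, and of 1 UP male were chosen after seeing the data. Steps were tested on simulated data. Python 3.11.15, pandas 2.3.3, numpy 2.4.6 and matplotlib 3.10.9 were used.

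Members and lists were chosen with earlier results of these data known. Genes named were the 12 with the largest gap, 3 on each side of the limit, the 20 described members with the largest gap, those in the pathway lists, the 4 with the highest mean count, the 4 with the largest sex difference in each direction, the extremes of the sex difference of ÅL against the others, the 2 steepest on depth in each direction, and others that the text says were chosen after their values were seen. No pair of libraries within a population was near-identical: the smallest chi-square per degree of freedom was 8.70 over 4180 pairs. The labels number no batches. The 3 individuals that the study removed for their genotypes were not identified and stayed in.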

Additional observations from a re-analysis of the deposited data

How the results depend on the processing

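The ÅL mean was the lowest in all 150 members in 10 of 11 alternatives, and in all but 1 in males alone. The members were chosen for a low ÅL mean in these same butterflies, so this largely follows from the rule. The median gap was between 0.38 and 0.79. The identity of the 150 genes was less stable: of the members, 80 were chosen again in the balanced set, 59 in females alone, 95 in males alone, 80 with medians and 89 without the 10 ÅL libraries, and 100 to 140 in the other 6 alternatives. The sex differences were called in 41 members, or 14 in the balanced set (27.3% and 9.33% of the members, against 22.7% and 7.8% of all genes). For sex in ÅL alone there were 39, or 14 in the balanced set and 23 without the 10 libraries (26%, 9.33% and 15.3%, against 13.2%, 5.34% and 10.03%). For depth there were 48, or 0 in the balanced set, where 0% of all genes were called (DESeq2 gave 53 in all libraries), and 9 in libraries of at least 2000000 counts (7.19% of all genes). For UP against SA and ÖL there were 4, or 2 with no filter, 7 with DESeq2, 1 in the balanced set and 9 without the 10 libraries, while the share of all genes called was 10.9% to 20.8%. No alternative called a member for the sex difference of ÅL against the others. Fewer libraries were tested in the balanced set, and the cause of the other changes was not tested.

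Among single genes, 100 of 109 values kept their direction and side of the threshold, and 7 lost significance. The depth slopes of MCINX015816 and MCINX001693 reversed in the balanced set, to 0.24 and 0.078. No paired analysis was made, because each library is a separate butterfly and the labels give no pairing. Counts of 0 to a few reads limit the genes of lowest mean, and the sampling error of counts is included in the spread between butterflies.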
